A study of Mus musculus with 6 samples.

Results

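The miR-130/miR-301 and miR-148/miR-152 families were followed in small RNA of small extracellular vesicles (sEV), the vesicles that cells release into their surroundings. Their members were the 7 mature miRNAs of the deposited count table that carry the family names on the 3p arm of the hairpin, 4 of the miR-130/miR-301 family and 3 of the miR-148/miR-152 family, out of 810 mature miRNAs in the table. The vesicles came from the medium of cochlear explants of postnatal day 3 ICR mice, which had been given either 50 µM cisplatin, a chemotherapy drug that harms the inner ear (Cis-sEV, n = 3), or an equal volume of PBS (Ctrl-sEV, n = 3) for 48 h. Both groups were cultured with sEV-free serum, and each sample pooled the medium of about 80 explants. No transgene or deletion was involved. The study's text calls the 3 samples of a group biological replicates, and whether they came from separate litters or days is not given in the sources used here.

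miRNAs recognise target transcripts mainly through the seed, bases 2 to 8 of the mature strand, and miRNAs that share a seed are grouped into a family because they can bind the same sites. A hairpin gives 2 arms, 5p and 3p, and the arm that is loaded into the silencing complex acts as the guide while the other is mostly degraded. The miR-148/miR-152 family is best known for repressing the DNA methyltransferase Dnmt1, and the miR-130/miR-301 family for repressing Pparg and components of TGF-β signalling. Such miRNAs can leave the cell inside vesicles, so a vesicle profile need not equal that of the tissue. The vesicles were sequenced in bulk, and fewer vesicles of one kind cannot be told apart from less of a miRNA per vesicle.

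The mature sequences are given first because both families are defined by them and because near-identical members could exchange reads. They were written 5′ to 3′ as in the deposited table, and capitals mark the seed. The sequences of 6 of the 7 members were identical to RefSeq entries on GRCm38.p6, and that of mmu-miR-301b-3p was taken from the deposited table alone.
mmu-miR-130a-3p: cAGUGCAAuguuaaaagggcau
mmu-miR-130b-3p: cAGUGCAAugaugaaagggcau
mmu-miR-301a-3p: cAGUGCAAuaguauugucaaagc
mmu-miR-301b-3p: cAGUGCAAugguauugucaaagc
mmu-miR-148a-3p: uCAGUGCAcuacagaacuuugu
mmu-miR-148b-3p: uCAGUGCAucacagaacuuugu
mmu-miR-152-3p: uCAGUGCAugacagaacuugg

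All 4 members of the miR-130/miR-301 family carried the seed AGUGCAA, and all 3 members of the miR-148/miR-152 family carried CAGUGCA. The seeds overlap in the 6 bases AGUGCA, which lie 1 base further from the 5′ end in the miR-148/miR-152 family. Outside the seed the miR-130/miR-301 members fell into pairs. mmu-miR-130a-3p and mmu-miR-130b-3p were identical at 20 of 22 positions counted from the 5′ end, mmu-miR-301a-3p and mmu-miR-301b-3p at 22 of 23, and mmu-miR-130a-3p and mmu-miR-301a-3p at 12 of 22. In the miR-148/miR-152 family, mmu-miR-148a-3p and mmu-miR-148b-3p were identical at 20 of 22 positions, mmu-miR-148b-3p and mmu-miR-152-3p at 19 of 21, and mmu-miR-148a-3p and mmu-miR-152-3p at 18 of 21. How reads that match more than 1 of these sequences were assigned is not given in the sources used here, so a split of counts within a pair is uncertain. No other miRNA of the table had a mature sequence identical to a member's.

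The 7 hairpins lie at 6 places in the mouse genome (GRCm38, 1-based). The hairpins of mmu-miR-130b-3p (chr16:17124061-17124142, minus strand) and mmu-miR-301b-3p (chr16:17124400-17124496, minus strand) are neighbours, 257 bases apart in an intron of 2610318N02Rik on the same strand. The other miR-130/miR-301 hairpins stand alone, that of mmu-miR-130a-3p between genes (chr2:84741115-84741178, minus strand) and that of mmu-miR-301a-3p in an intron of Ska2 (chr11:87113004-87113089, plus strand). In the miR-148/miR-152 family, the hairpin of mmu-miR-148a-3p lies between genes (chr6:51269812-51269910, minus strand), that of mmu-miR-148b-3p in an intron of Copz1 (chr15:103285125-103285221, plus strand) and that of mmu-miR-152-3p in an intron of Copz2 (chr11:96850393-96850465, plus strand). Copz1 and Copz2 encode paralogous subunits of the coatomer coat of transport vesicles, and the host introns run in the same direction as the hairpins.

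The depth of the 2 groups differed. Cis-sEV libraries held 1722359 to 1794175 miRNA reads and Ctrl-sEV libraries 528952 to 718597, and 586 to 603 miRNAs had a read in a Cis-sEV library against 258 to 311 in a Ctrl-sEV library. Levels are given as CPM, counts per 1000000 miRNA reads with the library size scaled by TMM, on which 3 reads, the floor used for a count of 0, amount to 1.42 to 1.59 CPM in the deeper Cis-sEV libraries but 4.19 to 7.30 CPM in the controls. Ctrl-sEV libraries were also patchy: of 262 tested miRNAs with at least 30 reads in a Ctrl-sEV library, 102 (38.9%) had 0 reads in another library of that group, against 3 of 336 (0.893%) in Cis-sEV, where the minimum of 30 reads was chosen after the values were seen. Among the members, 2 of 4 with that minimum in Ctrl-sEV, mmu-miR-130a-3p and mmu-miR-152-3p, were at 0 in another control, against 0 of 6 in Cis-sEV. Of the marker lists, summed CPM of hair cell miRNAs spanned 50048 to 73377 with cisplatin and 55946 to 73189 with PBS. Its 3 miRNAs did not move together. mmu-miR-96-5p was called higher (log2 fold change 2.08, edgeR adjusted p = 0.0142), and the groups overlapped in mmu-miR-182-5p. mmu-miR-183-5p, a defining hair cell miRNA read in all 6 libraries, was lower with cisplatin, at 31649 to 37049 against 43238 to 55235 CPM. Its log2 fold change of -0.49 (edgeR adjusted p = 0.0419) did not reach the fold limit of a call. For erythrocyte and serum miRNAs the sums were 2132 to 2305 against 8458 to 12865 (3 of 4 tested called lower). On that list, mmu-miR-144-3p had 2, 0 and 0 reads in Cis-sEV and 0 in each Ctrl-sEV library. Endothelial sums were 6224 to 8427 against 15934 to 20908 (1 of 2 lower). Those of mesenchyme and smooth muscle were 5456 to 8949 against 3029 to 5794 (0 of 5 called). Among these, mmu-miR-199a-3p was at 288, 3447 and 163 CPM in Cis-sEV and 1412, 1.40 and 1612 CPM in Ctrl-sEV. mmu-miR-199b-3p, which was not listed, was at 4086, 15.3 and 3893 CPM against 0, 683 and 268 CPM. The sum depends on how reads were divided between them, which was not tested. Neuronal sums were 1694 to 1985 against 1234 to 1521 (1 of 3 higher, with mmu-miR-124-3p at 0 in Ctrl-sEV). The endothelial sum was nearly all mmu-miR-126a-3p. mmu-miR-126a-5p went the other way, at 27.0 to 47.2 CPM with cisplatin against 0 to 6.19 CPM, and was not called (edgeR adjusted p = 0.0759). The part of depth, patchiness or these cell types in the results on the families was not tested.

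All 7 members were read in each Cis-sEV library, whereas 2, 3 and 3 of them were read in Ctrl-sEV replicates 1 to 3. Only mmu-miR-301a-3p and mmu-miR-148a-3p had a read in every library. mmu-miR-130b-3p, mmu-miR-301b-3p and mmu-miR-148b-3p had none in any Ctrl-sEV library, and mmu-miR-130a-3p and mmu-miR-152-3p each had reads in a single Ctrl-sEV library. The plot of levels by library shows every member present in Cis-sEV, though mmu-miR-130b-3p and mmu-miR-148b-3p varied between its libraries, and a Ctrl-sEV group of present and absent members.

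**Figure D1:**
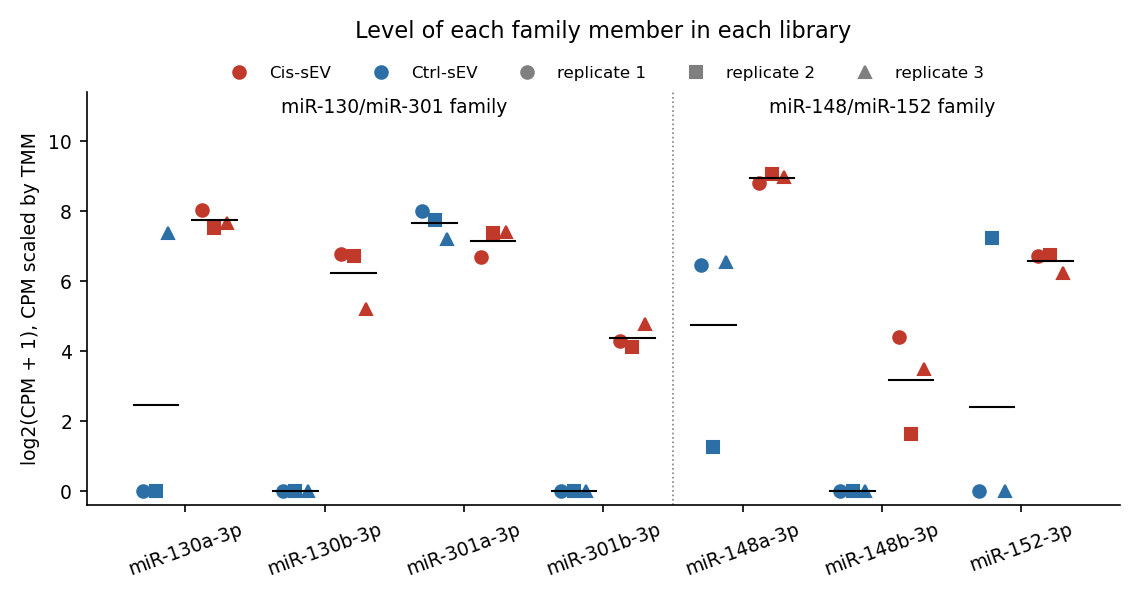
Level of each member, as log2(CPM + 1) with CPM scaled by TMM, in the 3 Cis-sEV (red) and 3 Ctrl-sEV (blue) libraries, with symbols for the replicates and a black line at the mean log2 value of each group. In 5 of the 7 members every red point lies above every blue point, beside 37.7% of all tested miRNAs (133 of 353), whereas mmu-miR-301a-3p and mmu-miR-152-3p overlap. The 5 include mmu-miR-148b-3p, which was not tested. Its lowest red point, at 2.12 CPM, lies under the control floor of 4.19 to 7.30 CPM.

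Of the 7 members, 6 passed the filter on low counts and were tested with edgeR's quasi-likelihood test over 353 miRNAs, with calls limited to those with an adjusted p up to 0.05 and a log2 fold change of 1 or more in either direction. 2 of these 6 were called higher in Cis-sEV and 0 lower, beside 23.5% of all tested miRNAs called higher (83 of 353, with 23 called lower). Both had 0 reads in every Ctrl-sEV library, so they passed the filter through Cis-sEV alone. Each of the 53 tested miRNAs at 0 in all controls was called higher, so the 2 calls add nothing to that absence of reads. Every Cis-sEV library was above every Ctrl-sEV library in 4 of the 6 tested members, beside 37.7% of all tested miRNAs (133 of 353). The median fitted log2 fold change was 2.51 over the 6 tested members and 0.44 over all tested miRNAs, and both medians were the same with miRNAs at 0 in Ctrl-sEV set at their lower bound. With 6 members, these counts describe the families and set them apart from no other group of miRNAs.

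mmu-miR-130a-3p was the most abundant member of the miR-130/miR-301 family in Cis-sEV. Its reads were 524, 350 and 431 in Cis-sEV replicates 1 to 3 and 0, 0 and 80 in Ctrl-sEV replicates 1 to 3, or 263, 185 and 204 CPM against 0, 0 and 165 CPM. Every Cis-sEV library lay above every Ctrl-sEV library, yet Ctrl-sEV replicate 3 came close to the lowest of them. The means were 217 ± 40.8 CPM and 55 ± 95.3 CPM (SD, n = 3 each), and the log2 fold change of 1.98 (SE 2.06) did not pass edgeR's quasi-likelihood test (Benjamini-Hochberg adjusted p = 0.597). With limma-voom the log2 fold change was 4.69 (adjusted p = 0.421). At the lowest Cis-sEV level, 76.1 and 133 reads would have fallen in Ctrl-sEV replicates 1 and 2, against a floor of 3 reads. Without Ctrl-sEV replicate 3 the miRNA was at 0 in the group and called (edgeR adjusted p = 0.00777). The lower bound on the fold was then 81.7, against a ratio of means of 3.95 with all controls. Here and below, a bound with 3 reads in place of 0 covers counting error only, not the spread between control libraries.

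mmu-miR-130b-3p was 1 of the 2 members called higher. It was counted 216, 200 and 77 times in Cis-sEV and never in Ctrl-sEV, or 109, 106 and 36.4 CPM against 0. Cis-sEV replicate 3 was the lowest of its group, well under the others. The mean of 83.6 ± 40.9 CPM (SD, n = 3) was at least 44.2-fold higher than in Ctrl-sEV, where the floor of 3 reads over the group stood in for 0, and the edgeR adjusted p was 0.0209. The bound was 24.5-fold without Ctrl-sEV replicate 2, the deepest of its group. The call was lost when any one Cis-sEV library was left out, with edgeR adjusted p between 0.0653 and 0.0733.

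mmu-miR-301b-3p, whose hairpin neighbours that of mmu-miR-130b-3p, was the other member called higher, at a lower level. Its reads were 37, 31 and 56 in Cis-sEV and 0 in each Ctrl-sEV library, or 18.6, 16.4 and 26.4 CPM against 0. The Cis-sEV libraries were close to each other, with the highest value in replicate 3, where mmu-miR-130b-3p was lowest. The mean of 20.5 ± 5.28 CPM (SD, n = 3) was at least 11.1-fold higher than in Ctrl-sEV, or at least 6.17-fold without Ctrl-sEV replicate 2, and the edgeR adjusted p was 0.00530. The call held without each library in turn (adjusted p 0.00806 to 0.0305), but was not made by every other fit, limma-voom among those that lost it (adjusted p = 0.0734). At the lowest Cis-sEV level, 6.74 to 11.7 reads would have fallen in a Ctrl-sEV library.

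mmu-miR-301a-3p, which differs from mmu-miR-301b-3p at 1 of 23 positions, was read in all 6 libraries. The difference between these near-identical members was not tested. It had 204, 312 and 356 reads in Cis-sEV and 105, 155 and 72 in Ctrl-sEV, or 102, 165 and 168 CPM against 256, 216 and 149 CPM. The groups overlapped, with Cis-sEV replicate 1 lowest and Ctrl-sEV replicate 1 highest. The means were 145 ± 37.0 and 207 ± 54.1 CPM (SD, n = 3 each), and the log2 fold change of -0.51 (SE 0.67) did not pass edgeR's test (adjusted p = 0.687), with a range of -0.73 to -0.15 over the other scalings of the libraries. It was the only member of the miR-130/miR-301 family read in Ctrl-sEV replicates 1 and 2.

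mmu-miR-148a-3p was the most abundant of all 7 members in Cis-sEV. Its reads were 884, 1020 and 1077 in Cis-sEV and 36, 1 and 45 in Ctrl-sEV, or 444, 540 and 509 CPM against 87.6, 1.40 and 92.9 CPM. The groups were far apart, and Ctrl-sEV replicate 2, the deepest control library, held a single read. The means of 497 ± 48.7 and 60.6 ± 51.4 CPM (SD, n = 3 each) differed 8.21-fold. The log2 fold change of 3.04 (SE 1.21) missed the limit in edgeR's test (adjusted p = 0.10). Without Ctrl-sEV replicate 2 the means differed 5.51-fold and the miRNA was called (edgeR adjusted p = 0.0264).

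mmu-miR-152-3p showed the opposite picture in Ctrl-sEV replicate 2. It had 207, 203 and 158 reads in Cis-sEV and 0, 107 and 0 in Ctrl-sEV, or 104, 107 and 74.6 CPM against 0, 149 and 0 CPM. The highest of the 6 libraries was thus a control, and it was the control in which mmu-miR-148a-3p had 1 read. The means of 95.3 ± 18.0 and 49.8 ± 86.3 CPM (SD, n = 3 each) gave a log2 fold change of 0.93 (SE 2.10) that did not pass edgeR's test (adjusted p = 0.826). With limma-voom the log2 fold change was 5.45 (adjusted p = 0.327). At the lowest Cis-sEV level, 30.7 and 36.1 reads would have fallen in Ctrl-sEV replicates 1 and 3. Without Ctrl-sEV replicate 2 it was at 0 in Ctrl-sEV and called (edgeR adjusted p = 0.0264). The counting bound was then 28.3-fold, against a ratio of means of 1.91 with all controls.

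mmu-miR-148b-3p was the least abundant member and did not pass the filter on low counts. It had 40, 4 and 22 reads in Cis-sEV and 0 in each Ctrl-sEV library, or 20.1, 2.12 and 10.4 CPM against 0. The mean of 10.9 ± 9.0 CPM (SD, n = 3) was at least 5.91-fold higher than in Ctrl-sEV, a bound that fell to 3.28-fold without Ctrl-sEV replicate 2 and to 3.48-fold without Cis-sEV replicate 1. At the level of Cis-sEV replicate 2, a Ctrl-sEV library would have held 0.870 to 1.52 reads, so a difference from that library was not detectable at this depth.

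The levels of the members in Cis-sEV ran from mmu-miR-148a-3p through mmu-miR-130a-3p, mmu-miR-301a-3p, mmu-miR-152-3p, mmu-miR-130b-3p and mmu-miR-301b-3p to mmu-miR-148b-3p. All are 21 to 23 bases long, so no correction for length was made. The order is one of reads, and whether each miRNA is captured equally well was not tested. Among neighbours in this order, the Cis-sEV ranges of mmu-miR-148a-3p and mmu-miR-130a-3p, of mmu-miR-130a-3p and mmu-miR-301a-3p, and of mmu-miR-130b-3p and mmu-miR-301b-3p did not overlap. Those of mmu-miR-301a-3p and mmu-miR-152-3p, of mmu-miR-152-3p and mmu-miR-130b-3p, and of mmu-miR-301b-3p and mmu-miR-148b-3p did. In Ctrl-sEV, mmu-miR-301a-3p had the highest mean and no other member exceeded it in replicates 1 and 2.

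**Figure D2:**
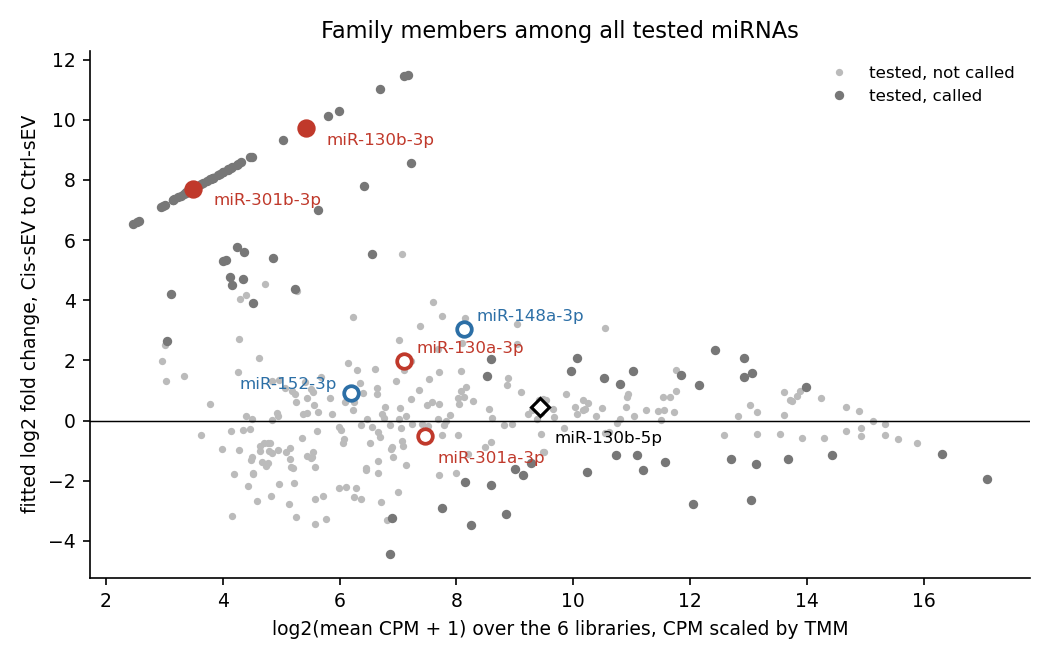
Fitted log2 fold change of Cis-sEV to Ctrl-sEV against the mean level over the 6 libraries for the 353 tested miRNAs, with the 6 tested members as circles (filled where called), the 5p arm of the mir-130b hairpin as a diamond and all other miRNAs as grey points. The straight upper left edge is formed by the 53 miRNAs with 0 reads in every Ctrl-sEV library, among them mmu-miR-130b-3p and mmu-miR-301b-3p, whose fitted values depend on the prior count and are no estimate of a fold.

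The edge in the plot of fold change against level shows how common the pattern of both called members was. Of the 353 tested miRNAs, 53 lacked reads in all 3 controls, and 2 of these were members. The members with a read in a Ctrl-sEV library lay among the uncalled miRNAs of similar level.

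By family, summed levels were higher in Cis-sEV in both cases, and by more in the miR-148/miR-152 family. The miR-130/miR-301 members together reached 493, 472 and 434 CPM in Cis-sEV and 256, 216 and 314 CPM in Ctrl-sEV, a ratio of means of 1.78 (log2 0.83) for 467 ± 29.7 against 262 ± 49.0 CPM (SD, n = 3 each). Over the other scalings of the libraries the log2 ratio ran from 0.61 to 1.18, beside a median over all tested miRNAs that itself moved from 0.22 to 0.80. The miR-148/miR-152 members together reached 568, 649 and 594 CPM against 87.6, 151 and 92.9 CPM, a ratio of means of 5.47 (log2 2.45, 2.21 to 2.76 over the scalings) for 604 ± 41.4 against 110 ± 35.1 CPM. No library of either group overlapped the other group in either sum. Such a separation was common, since 37.7% of single tested miRNAs (133 of 353) had every Cis-sEV library above every Ctrl-sEV library. No test was made on the sums, since the members had been chosen with results known.

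**Figure D3:**
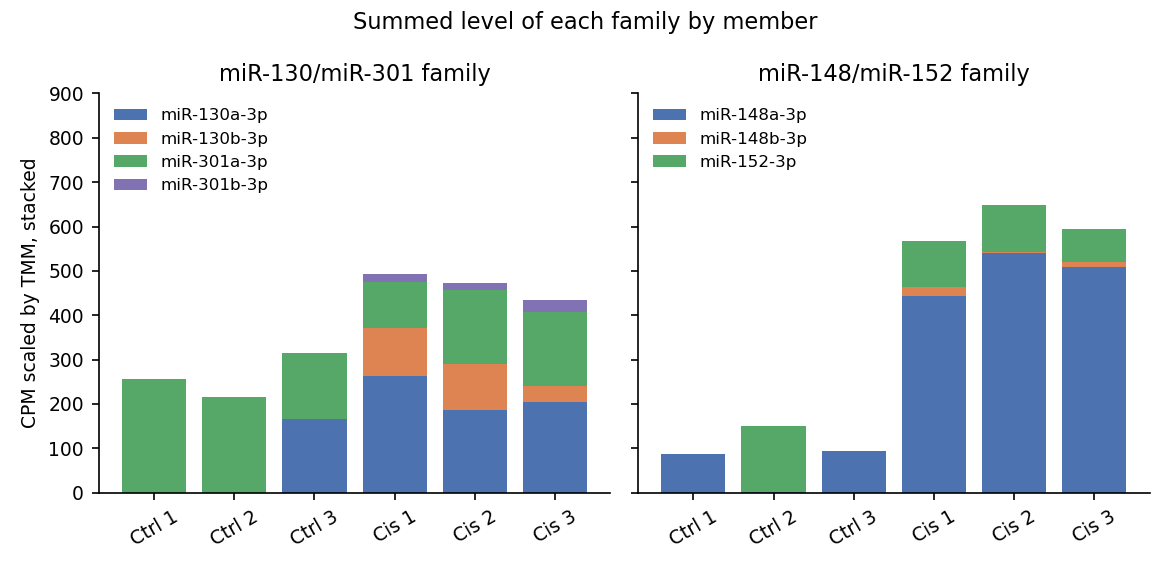
Summed CPM, scaled by TMM, of the miR-130/miR-301 family (left) and the miR-148/miR-152 family (right) in each library, stacked by member. The Cis-sEV bars hold every member and reach similar totals (434 to 493 and 568 to 649 CPM), while the Ctrl-sEV bars are made of 1 or 2 members that change from library to library.

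The make-up of the families also varied from library to library. Within the miR-130/miR-301 reads of Cis-sEV replicates 1 to 3, mmu-miR-130a-3p took 53.4%, 39.2% and 46.8% (95% Wilson intervals 50.3 to 56.5, 36.0 to 42.4 and 43.6 to 50.1), and mmu-miR-301a-3p took 20.8%, 34.9% and 38.7%. In Ctrl-sEV replicates 1 and 2 all 105 and 155 reads of the family were mmu-miR-301a-3p, and in replicate 3 they were divided between mmu-miR-130a-3p (52.6%, 44.7 to 60.4) and mmu-miR-301a-3p (47.4%, 39.6 to 55.3). In the miR-148/miR-152 family mmu-miR-148a-3p took 78.2%, 83.1% and 85.7% of the Cis-sEV reads. In Ctrl-sEV it took all 36 reads of replicate 1, 1 of 108 reads of replicate 2 (0.926%, 0.164 to 5.06) and all 45 reads of replicate 3, the rest of replicate 2 being mmu-miR-152-3p. These intervals, and the floors given for counts of 0, cover counting error only, since reads amplified by PCR without molecular identifiers are not independent molecules.

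Reads of the miR-148/miR-152 family outnumbered those of the miR-130/miR-301 family in each Cis-sEV library, by 1.15, 1.37 and 1.37 to 1. In Ctrl-sEV the miR-130/miR-301 family had more reads, with ratios of 0.343, 0.697 and 0.296. This ratio is free of the scaling of libraries, and the order of the families was thus reversed between the groups in all 6 libraries. In Ctrl-sEV it rests on 36, 108 and 45 reads of the miR-148/miR-152 family, 107 of the 108 being mmu-miR-152-3p. How often other groups of miRNAs change order in this way was not tested. As shares of all miRNA reads, the miR-130/miR-301 family took 0.0513% to 0.0548% after cisplatin against 0.0195% to 0.0287% in the controls, and the miR-148/miR-152 family took 0.0631% to 0.0712% and 0.00667% to 0.0150%.

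Ratios between members of a library were compared for 4 pairs, with 0.5 read added to each count and two-sided exact permutation tests, for which 0.1 is the smallest p that 3 against 3 libraries allow, so no pair could pass 0.05. The log2 ratio of mmu-miR-301a-3p to mmu-miR-130a-3p was -1.36, -0.17 and -0.28 in Cis-sEV and 7.72, 8.28 and -0.15 in Ctrl-sEV. All Ctrl-sEV values were above all Cis-sEV values, with replicate 3 of Ctrl-sEV next to the Cis-sEV range (difference -5.88, exact permutation p = 0.1, Benjamini-Hochberg adjusted p = 0.4). The values of 7.72 and 8.28 are set by the added 0.5 read, since mmu-miR-130a-3p had 0 reads in those libraries, and the difference was -7.43 with 0.1 read added, -8.60 without Ctrl-sEV replicate 3 and -4.39 without Ctrl-sEV replicate 2. The ratio of mmu-miR-152-3p to mmu-miR-148a-3p was even in Cis-sEV, at -2.09, -2.33 and -2.77, and spread from -6.51 to 6.16 in Ctrl-sEV (difference -0.22, exact permutation p = 1), where replicates 1 and 3 had 0 reads of mmu-miR-152-3p. The ratios of mmu-miR-130b-3p to mmu-miR-130a-3p (difference 0.92, exact permutation p = 1) and of mmu-miR-148b-3p to mmu-miR-148a-3p (difference -1.19, exact permutation p = 0.7) also rest in Ctrl-sEV on the added 0.5 read, and mmu-miR-301b-3p to mmu-miR-130b-3p has no value there, since both were at 0. The last 3 of the 4 compared pairs had an adjusted p of 1.

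The opposite arms of the hairpins give another view, since both arms are cut from the same precursor. The table holds the 5p arm of 4 of the 7 hairpins, and no row was found for mmu-miR-301b-5p, mmu-miR-148a-5p or mmu-miR-152-5p. mmu-miR-130b-5p is shown with its hairpin because it was the only 5p arm to pass the filter and the only one that exceeded its 3p arm in every library. Capitals in the first sequence mark the seed of the 5p arm, and in the second, the RefSeq hairpin at chr16:17124061-17124142 on the minus strand, the 5p arm (bases 13 to 34) and the 3p arm (bases 51 to 72).
mmu-miR-130b-5p: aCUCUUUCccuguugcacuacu
mmu-mir-130b: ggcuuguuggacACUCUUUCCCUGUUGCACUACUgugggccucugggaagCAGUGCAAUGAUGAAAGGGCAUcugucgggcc

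mmu-miR-130b-5p had 1389, 1664 and 1697 reads in Cis-sEV and 275, 384 and 267 in Ctrl-sEV, or 698, 880 and 801 CPM against 669, 536 and 551 CPM. The groups did not overlap, but Cis-sEV replicate 1 and Ctrl-sEV replicate 1 lay close together. The means of 793 ± 91.5 and 586 ± 72.9 CPM (SD, n = 3 each) differed 1.35-fold, and the log2 fold change of 0.44 (SE 0.28) did not pass edgeR's test (adjusted p = 0.329). This miRNA was itself the middle one of the 353 tested, so the median log2 fold change of 0.44 is its own value.

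Although the members had been chosen as guide arms, the 3p arm was the minor arm of the mir-130b hairpin in every library. In Cis-sEV it took 13.5% of the reads on both arms in replicate 1 (95% Wilson interval 11.9 to 15.2), 10.7% in replicate 2 (9.40 to 12.2) and 4.34% in replicate 3 (3.49 to 5.39). In Ctrl-sEV it took 0 of 275, 384 and 267 reads, which allows shares of up to 1.09%, 0.781% and 1.12%. Each Ctrl-sEV limit lies under the lowest Cis-sEV interval, but these limits and intervals cover counting error only. They leave out the patchiness of the controls, where 38.9% of tested miRNAs with at least 30 reads in a library had 0 in another. The mean shares were 9.51% ± 4.68 and 0% (SD, n = 3 each), with an exact permutation p of 0.1, the smallest possible, and 0.2 adjusted over the 2 hairpins compared. This p was fixed in advance by the absence of mmu-miR-130b-3p from all controls and adds nothing to it. Whether minor arms of other hairpins were also absent from the shallower controls was not tested. A larger 5p arm was common: of 127 miRNA names with both arms in the table and at least 100 reads in Cis-sEV, 82 (64.6%) had more reads on the 5p arm.

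**Figure D4:**
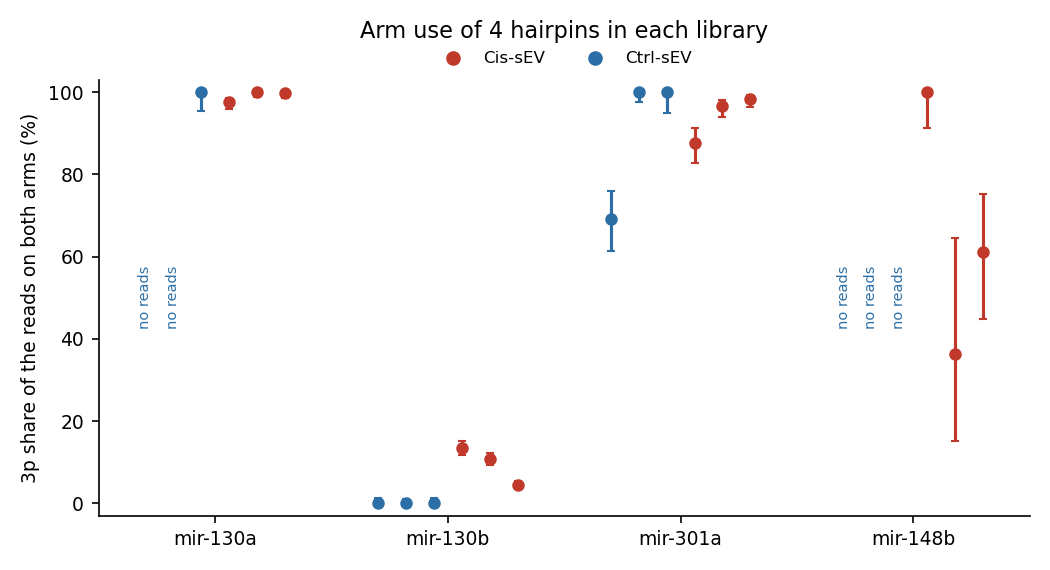
Share of the 3p arm in the reads on both arms of 4 hairpins, in percent, for each Ctrl-sEV (blue) and Cis-sEV (red) library in order of replicate, with 95% Wilson intervals. The 3p arm takes 4.34% to 13.5% of mir-130b reads in Cis-sEV against 0% in Ctrl-sEV, and 69.1% or more of mir-130a and mir-301a reads wherever these were read.

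The mir-130a and mir-301a hairpins were read mainly on the 3p arm, and mir-148b had few reads on either. mmu-miR-130a-5p had 13, 0 and 1 reads in Cis-sEV and 0 in Ctrl-sEV, which left the 3p arm with 97.6%, 100% and 99.8% of the mir-130a reads in Cis-sEV. mmu-miR-301a-5p had 29, 11 and 6 reads in Cis-sEV and 47, 0 and 0 in Ctrl-sEV, so the 3p share was 87.6%, 96.6% and 98.3% against 69.1%, 100% and 100% (two-sided exact permutation p = 1). Ctrl-sEV replicate 1 thus held the lowest 3p share of mir-301a together with its highest 3p level. mmu-miR-148b-5p had 0, 7 and 14 reads in Cis-sEV but none in the controls, and the 3p share of mir-148b was 100%, 36.4% and 61.1%, with intervals as wide as 15.2 to 64.6 for the 11 reads of replicate 2.

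The 7 members were the only miRNAs of the table with either seed. Of 10 RefSeq mature miRNAs with a member's seed, 4 had no row in the table, namely mmu-miR-130c, mmu-miR-6341, mmu-miR-6389 and mmu-miR-721. A single further miRNA, mmu-miR-350-5p, holds the shared bases AGUGCA within bases 1 to 9, and it had 0, 6 and 14 reads in Cis-sEV and 0 in each Ctrl-sEV library, too few to be tested.

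Among the other tested miRNAs, those nearest in profile to each family sum were found by the root mean square difference of log2(CPM + 1) over the 6 libraries, each profile centred on its mean. Nearest to the miR-130/miR-301 sum were mmu-miR-143-3p (0.12), mmu-miR-203-3p (0.17) and mmu-miR-98-5p (0.17). mmu-miR-143-3p, a miRNA of smooth muscle and mesenchyme, lay at 3890 to 4207 CPM after cisplatin against 1939 to 2611 CPM. Nearest to the miR-148/miR-152 sum were mmu-miR-499-5p (0.44), mmu-miR-1947-5p (0.49) and mmu-miR-542-5p (0.50), of which mmu-miR-542-5p ranged from 484 to 601 CPM against 153 to 275 CPM. The distances were larger for the miR-148/miR-152 family. In Ctrl-sEV, mmu-miR-499-5p (1.40 to 2.43 CPM) and mmu-miR-1947-5p (0 in each library) lay under the floor, so their nearness rests on values under it.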

How the data were processed

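Small RNA of 6 sEV samples was size selected at 18–30 nt by gel electrophoresis and sequenced on the DNBSEQ platform. Per the study's methods and the submitters' processing notes, the authors aligned reads to GRCm38.p6 with Bowtie2 and annotated them with AASRA and cmsearch, miRBase taking precedence over piRNA, Rfam and other RNA (versions not given in the sources used here). They deposited raw counts of reads on each mature miRNA per library, without normalization, which were used as deposited. The table also holds the authors' mean count of each group, which was not used.

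The counts of all 810 miRNAs entered edgeR 4.0.16 (R 4.3.3) with TMM factors and filterByExpr defaults (minimum count 10, minimum total 15), which left 353. The quasi-likelihood test compared Cis-sEV with Ctrl-sEV, with Benjamini-Hochberg adjustment over all tested, and calls followed the study's limits (adjusted p 0.05, absolute log2 fold change 1). Scripts were tested on simulated data, which did not imitate the patchy controls and so say nothing on calls that rest on counts of 0. Where a group was at 0, 3 reads in all took its place and the fold is given as a lower bound for counting error alone. Such a bound does not cover the spread between control libraries. Alternatives were other scalings, no filter, no fold limit, DESeq2 1.42.0, limma-voom (limma 3.58.1), a replicate block, each library left out in turn, and 0.1 in place of 0.5 read in ratios. Python 3.11.15, pandas 2.3.3, numpy 2.4.6, scipy 1.17.1 and matplotlib 3.10.9 served for the rest. Hairpin positions came from RefSeq and GENCODE M21. The members, marker lists and the rule for named miRNAs were chosen with earlier results of these data known. The rule named all members, their opposite arms, miRNAs with a member's seed or its shared bases, the 3 nearest profiles per family, and the markers.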

Additional observations from a re-analysis of the deposited data

How the results depend on the processing

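With 3 libraries a group and shallower Ctrl-sEV libraries, single control libraries decided several values. The calls of mmu-miR-130b-3p and mmu-miR-301b-3p were made under the 5 other scalings, without the filter, without a fold limit and by DESeq2. The number of members called was 2, but 1 with limma-voom (mmu-miR-130b-3p, adjusted p = 0.00983), 0 with the replicate block, and 1 to 4 over the libraries left out in turn: 1 without any Cis-sEV library and 4 without Ctrl-sEV replicate 2. The number of all miRNAs called was 106 (147 at an unadjusted p under 0.05), 43 with limma-voom, 24 with the replicate block, and 53 to 169 with a library left out, the lowest without Cis-sEV replicate 1 (57 without replicate 2 and 70 without replicate 3) and the highest without Ctrl-sEV replicate 3. Scaling by total miRNA reads gave 97 higher and 11 lower calls in place of 83 and 23. Deviations of libraries with the same replicate number correlated at -0.04, -0.17 and -0.01, which gave no sign of pairing. With 3 libraries a group and patchy controls, this check could not exclude shared litters or days. In the paired fit both called members had an adjusted p of 0.161, and mmu-miR-130a-3p had a log2 fold change of 6.89 (adjusted p = 0.200) and mmu-miR-152-3p one of 5.68 (adjusted p = 0.392), against 1.98 and 0.93 without the replicate block.

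The log2 ratio of the miR-130/miR-301 sums was 1.18 with total miRNA reads and 0.61 with upper-quartile factors, and 0.65 to 1.09 with a library left out. For the miR-148/miR-152 sums the latter range was 2.25 to 2.82. With a library left out, the difference in log2 ratio ran from -1.52 to 2.15 for mmu-miR-130b-3p to mmu-miR-130a-3p, from -2.06 to 0.40 for mmu-miR-148b-3p to mmu-miR-148a-3p and from -2.38 to 3.95 for mmu-miR-152-3p to mmu-miR-148a-3p. The sign turned without Ctrl-sEV replicate 3 in the first and without Ctrl-sEV replicate 2 in the others. With 0.1 read added it turned to 0.91 and 1.17 in the last 2 pairs, which rest on counts of 0. The difference for mmu-miR-301a-3p to mmu-miR-130a-3p, -5.88, kept its sign in all 7 alternatives run, but its size also rests on counts of 0: it ran from -8.60 to -4.39 with a library left out and was -7.43 with 0.1 read added.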
